A study of Sus scrofa with 12 samples.

Results

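Supra-high wall shear stress (WSS) was examined in 6 of the 12 RNA sequencing libraries of this series: 3 cultures of porcine arterial endothelial cells (ECs) kept at 80 dyne/cm2 and 3 cultures of the same donors kept at the physiological 30 dyne/cm2. The members were taken by the sample descriptions (80dyn against 30.2dyn) and joined by replicate number, so that each donor was compared with itself. All cultures were primary ECs of Sus scrofa exposed to constant laminar flow for 48 h on gelatin-coated channel slides. They carried no genetic change, drug or added agent that set the groups apart. The other 6 libraries, used only for reference, were 3 cultures at the low aneurysmal WSS of 2 dyne/cm2 and a second set of 3 cultures at 30 dyne/cm2 (30.1dyn). The cultures at 30 dyne/cm2 are called set 1 (30.1dyn) and set 2 (30.2dyn) here, and set 2 is the control unless stated otherwise. The design text gives slide type and seeding number as partners of the flow level, and the labels do not say in words which of the 2 sets was grown in the slide used at 80 dyne/cm2. The labels call the cells aortic, whereas the methods of the study describe coronary arteries of pigs 8 months of age, which applies to all groups.

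ECs line every artery and sense the drag of flowing blood through the glycocalyx, cell-cell junctions, integrins and ion channels. Laminar flow of a physiological size turns on the transcription factors KLF2 and KLF4, which raise nitric oxide synthase and dampen inflammation, and the cells align and spread an organised actin network. WSS far above that range occurs at the apex of arterial bifurcations and in parts of intracranial aneurysms, where it has been linked to outward remodelling of the wall. Matrix proteins, the enzymes that cut them and the vasoactive signals that ECs send to the underlying muscle are the classes usually looked at in that setting.

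The 6 libraries held between 32020939 and 38336834 counts over 21153 annotated genes. Endothelial markers were abundant in all of them, with a sum over the 11 matched markers of 8365 to 9546 counts per 1000000 (CPM) at 30 dyne/cm2 and 10023 to 10801 CPM at 80 dyne/cm2. Smooth muscle markers summed to 58.9 to 75.9 CPM and 49.9 to 73.9 CPM, and leukocyte markers to 13.3 to 24.3 CPM and 14.3 to 28.8 CPM, in the same order. Lymphatic markers did not exceed 2.86 CPM in sum and epithelial markers did not exceed 0.378 CPM. The donors differed widely from each other. The biological coefficient of variation was 11.4% with the donor as a block and 29.4% without it, and all counts of genes below depend on the block.

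At 80 dyne/cm2, 246 of 11187 genes tested changed by 2-fold or more and had a Benjamini-Hochberg adjusted p under 0.05 in the quasi-likelihood test of edgeR. Of these, 128 rose (1.14% of genes tested) and 118 fell (1.05%), and 242 of the 246 moved the same way in all 3 donors. Without the fold requirement 488 genes rose (4.36%) and 452 fell (4.04%), and this wider rule is the one used for gene lists below. These shares over all genes tested are the background for the count given with each list. The effect was small for most genes, with a median absolute log2 fold change of 0.157 over all genes tested, whereas 21 genes rose and 12 fell at least 4-fold. The groups did not overlap for 102 of the 246 called genes and for 14.9% of all genes tested. This share follows from the same contrast that made the calls and is given as a description. Of the 246, 27 carry no gene name in the tables used. Without the block no gene was called by edgeR, although 929 had an unadjusted p under 0.05. With 1 donor left out, the count was 330 without donor 1, 143 without donor 2 and 148 without donor 3.

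**Figure D1:**
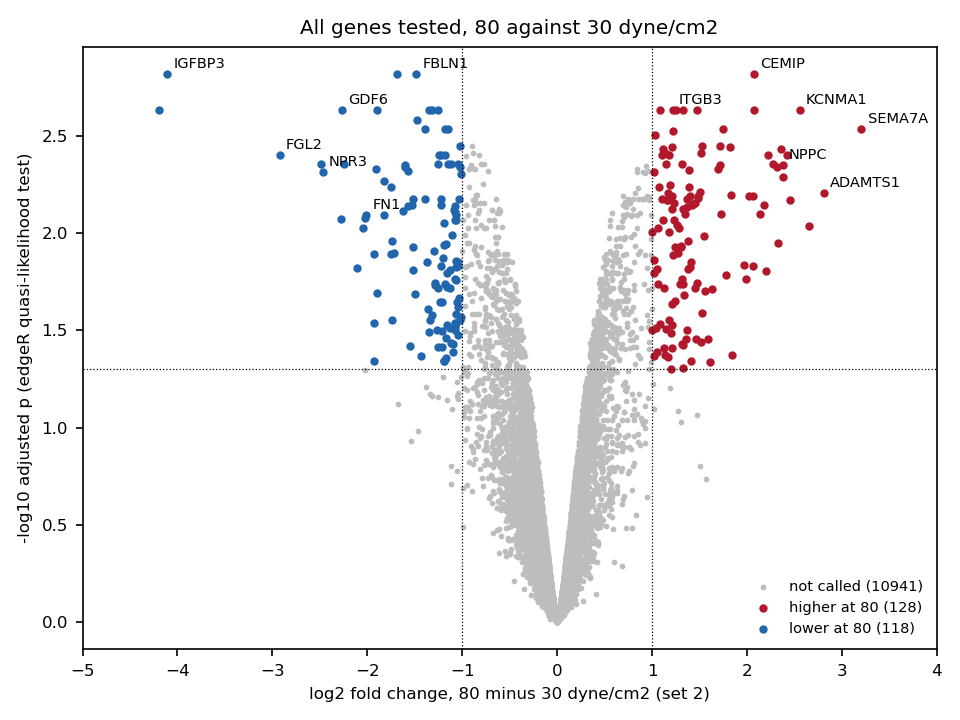
Each point is 1 of the 11187 genes tested, with the log2 fold change at 80 against 30 dyne/cm2 (set 2) on the x axis and -log10 of the adjusted p on the y axis. Dotted lines mark a 2-fold change and an adjusted p of 0.05. The 128 genes higher and the 118 genes lower at 80 dyne/cm2 spread to both sides in similar numbers, and IGFBP3 stands far out on the lower side, beside SHISA9, a gene of low counts.

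The choice of control set bears on every result that follows. Against set 1, with the same 80 dyne/cm2 libraries and so not as an independent comparison, 10 genes rose (0.0899% of genes tested) and 14 fell (0.126%), and 15 of these 24 were among the 246. The 2 control sets differed from each other by 1 called gene, IL1A (0.00896% of genes tested), but 2146 of 11163 genes had an unadjusted p under 0.05 between them. IL1A itself had a log2 value of 1.00 against set 2 and -0.51 against set 1. Of the 940 genes past the adjusted p, 930 were tested against set 1, where 364 (39.1%) had less than 50% of their log2 value against set 2 and 63 of these had the other sign. A gene described below as past the test is given with its log2 value against set 1 wherever that fell under 50%. SHISA9, LRRC4, ANK2 and TENT5A were not tested against set 1. Of 51 gene lists, 44 held at least 1 member past the adjusted p against set 2, and 34 of these held none against set 1. Calls were fewer in 41 of the 44 lists without donor 2 and in 41 without donor 3, and were more in all 44 without donor 1. Over all genes tested, the adjusted p gave 1031 rises and 1063 falls without donor 1. Without donor 2 it gave 169 and 184, and without donor 3 it gave 90 and 107. Several functional classes held genes with alike values against both sets as well as genes whose value was near 0 against set 1.

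The flow-responsive transcription factors shifted little beside their distance from 2 dyne/cm2, where KLF2 read 2.72, 11.9 and 8.68 CPM. KLF2 stood at 186, 113 and 156 CPM in donors 1 to 3 at 30 dyne/cm2 and at 222, 182 and 205 CPM at 80 dyne/cm2. Each donor was higher at 80 dyne/cm2, and the change was 1.36-fold (log2 0.44 ± 0.10 SE, adjusted p = 0.0428, edgeR). KLF4 read 254, 176 and 249 CPM against 268, 236 and 342 CPM and did not pass the test (log2 0.32 ± 0.10 SE, adjusted p = 0.109, edgeR). NOS3, the endothelial nitric oxide synthase, read 924, 666 and 1094 CPM at 30 dyne/cm2 and 1224, 1411 and 1842 CPM at 80 dyne/cm2. All 3 cultures at 80 dyne/cm2 lay above all 3 of set 2, and NOS3 rose 1.67-fold (adjusted p = 0.026, edgeR). Against set 1 its log2 difference was 0.33. SLCO2A1, a prostaglandin transporter, went the other way, from 33.7, 37.1 and 50.8 CPM to 12.1, 10.9 and 22.3 CPM. It fell by 1.48 on the log2 scale (SE 0.12, adjusted p = 0.0026, edgeR) and by 1.91 against set 1. CYP1B1, an aryl hydrocarbon receptor target, ranged from 18.7 to 245 CPM between donors at 30 dyne/cm2 and did not pass the test. Of the identity markers, CDH5 (VE-cadherin) had a log2 change of 0.23 ± 0.12 SE and PECAM1 of 0.40 ± 0.13 SE, neither past the test. The sialomucin EMCN rose 5.02-fold, from 20.7, 12.4 and 78.3 CPM to 76.3, 152 and 242 CPM.

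Ligands and receptors of vascular tone formed the list with the most calls: 7 of 29 members tested rose and 7 fell, a share of 24.1% each way beside 4.36% and 4.04% of all genes. The 14 calls became 9 without donor 2, with donor 3 left out 2 rose and 4 fell, and against set 1 none rose and 1 fell. Natriuretic peptide signalling moved at both of its ends. NPPC (chr15:132504669-132509688 in Sscrofa11.1), which encodes the vasodilator C-type natriuretic peptide, stood at 13.5, 3.44 and 2.32 CPM at 30 dyne/cm2 and at 55.9, 33.1 and 8.21 CPM at 80 dyne/cm2. It was higher in every donor, although the donors' ranges overlapped, and rose 5.20-fold (log2 2.38 ± 0.26 SE, adjusted p = 0.00446, edgeR). NPR3 (chr16:18841540-18929813), the receptor that clears natriuretic peptides, went from 173, 45.7 and 60.7 CPM to 36.8, 3.88 and 17 CPM. The groups did not overlap, and NPR3 fell by 2.47 on the log2 scale (SE 0.28, adjusted p = 0.00483, edgeR). Against set 1 the values were 2.02 for NPPC and -1.46 for NPR3.

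EDNRB, the endothelin B receptor, rose by a log2 value of 1.85 from levels of 0 to 2.42 CPM, and CALCR, the calcitonin receptor, by 1.99 from 0.139 to 1.27 CPM. The CALCR change was 0.08 against set 1. PTGES, the inducible prostaglandin E synthase, read 9.08, 10 and 7.89 CPM and then 16.7, 28.6 and 17.8 CPM. It rose by 1.19 (log2) and was 0.94 above set 1. Named here after their values were seen, EDN1 (endothelin 1) fell by 0.65, ACE (angiotensin-converting enzyme) fell by 1.24 and PTGS2 (cyclooxygenase 2) rose by 0.70 on the log2 scale. For these 3 genes the log2 differences from set 1 were 0.04, -0.11 and -0.84, so their calls did not hold with the other control. For NPPC, PTGES and EDNRB the sign was the same with either control.

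Secreted morphogens and guidance cues included the gene with the largest rise among those named by the selection rule. SEMA7A (chr7:59094919-59119534), a membrane-anchored semaphorin that binds integrins, read 0.334, 1.42 and 0.763 CPM at 30 dyne/cm2 and 3.07, 19.9 and 4.09 CPM at 80 dyne/cm2. No culture at 80 dyne/cm2 came down to the level of set 2, and SEMA7A rose 9.23-fold (log2 3.21 ± 0.28 SE, adjusted p = 0.00291, edgeR). Set 1 was itself higher, at 1.76, 4.31 and 3.66 CPM, and the log2 difference from it was 1.09. Among 36 semaphorin, ephrin and guidance genes tested, 5 rose and 4 fell, with 6 calls without donor 2 and 5 without donor 3. The guidance ligand NTN1 rose by 1.27 (log2) and SEMA3F by 0.77, whereas SLIT2 fell by 1.57 (-0.71 against set 1) and LRRC4, a synaptic adhesion protein, by 2.49.

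WNT9B, a WNT ligand, increased 4.22-fold, from 77.9, 39.6 and 191 CPM to 262, 230 and 748 CPM, and was higher at 80 dyne/cm2 in each donor. It was 1.13 above set 1 on the log2 scale. The other 4 called members of the WNT list fell, among them the receptor FZD5 (-0.69) and the secreted inhibitor WIF1 (-0.65), out of 27 tested, and 1 member of this list was called without donor 2 or without donor 3. The WNT shares were 3.70% up and 14.8% down, beside 4.36% and 4.04% of all genes. In the BMP and TGF-beta list, 3 of 43 members rose and 2 fell, with 2 calls without donor 3. These shares of 6.98% and 4.65% were near the 4.36% and 4.04% of all genes. The ligand GDF6 went from 79.8, 44.8 and 20.7 CPM to 11.6, 11.5 and 5.19 CPM, a 4.81-fold fall, but set 1 held 31.6, 19.4 and 2.91 CPM and the log2 difference from it was -0.55. BMP4 fell by 0.96 on the log2 scale (-0.23 against set 1), and the BMP antagonist NOG rose by 1.07. BMP1, the protease that trims procollagens rather than a BMP ligand, rose by 0.91 (log2) and was 0.71 above set 1.

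The proteins that bind insulin-like growth factors in the medium diverged. IGFBP3 (ENSSSCG00000038783, named from the study's gene table and therefore not counted in the list) stood at 485, 470 and 268 CPM at 30 dyne/cm2 and at 39, 16.7 and 18.1 CPM at 80 dyne/cm2. All 3 donors dropped to a small fraction of their control, with log2 changes of -3.63, -4.83 and -3.90. IGFBP3 was 17.2-fold lower (log2 -4.11 ± 0.23 SE, adjusted p = 0.00152, edgeR). Set 1 held 493, 401 and 56.7 CPM, and the value against it was -3.34, with an adjusted p of 0.0815 in the edgeR fit. IGFBP6 went from 46.9, 26.7 and 91.5 CPM to 111, 105 and 175 CPM and rose by 1.37 on the log2 scale. Its log2 difference from set 1 was 1.53, and that comparison also passed the test (adjusted p = 0.0227, edgeR). IGFBP4 fell by 0.97. Of the 10 list members tested, no others passed.

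**Figure D2:**
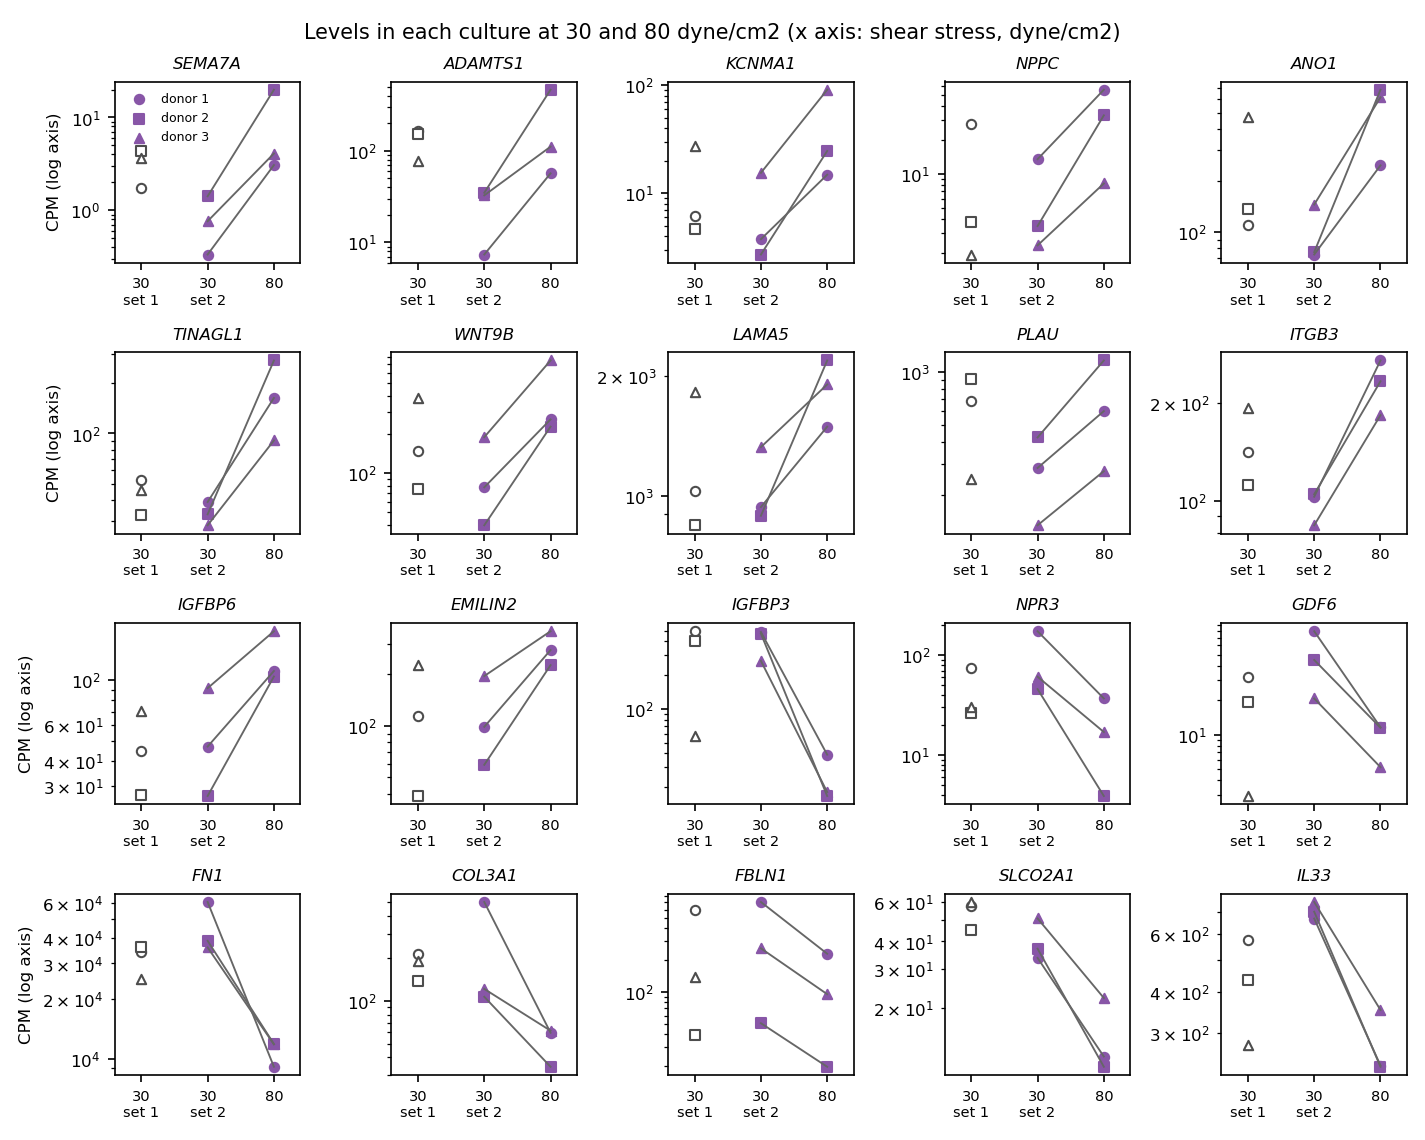
CPM on log axes for 20 of the genes described, with 1 panel per gene and 1 marker shape per donor. Filled markers joined by lines are the matched cultures at 30 (set 2) and 80 dyne/cm2, and open markers are the second set at 30 dyne/cm2. All lines of a panel slope the same way, while the open markers of ADAMTS1 and PLAU lie near the 80 dyne/cm2 level and those of IGFBP6, EMILIN2, NPPC and SLCO2A1 lie near set 2 in most donors.

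Matricellular genes and type III collagen were lower at 80 dyne/cm2. In the matricellular list 22 of 24 members tested had a lower value, 7 fell by the test (29.2%, beside 4.04% of all genes) and 1 rose, with a median log2 change of -0.44. The count of falls was 3 without donor 3, and the median was -0.25 without donor 1. Against set 1 the median was -0.50, with 1 member called in each direction. FN1 (chr15:117658158-117737145), fibronectin, stood at 60748, 38906 and 36058 CPM at 30 dyne/cm2 and at 9167, 11906 and 11850 CPM at 80 dyne/cm2. The 3 cultures at 80 dyne/cm2 lay close together and well under every control culture. FN1 fell 4.04-fold (log2 -2.01 ± 0.28 SE, adjusted p = 0.00806, edgeR), and its value against set 1 was -1.53. The basement-membrane-associated FBLN1 (fibulin 1) differed widely between donors, with 706, 50.8 and 258 CPM, and went to 230, 19.7 and 95.4 CPM. Its per-donor log2 changes were -1.62, -1.38 and -1.45, so that donors far apart in level shared the same change. SPARCL1, SMOC1 and FBLN2 also fell more than 2-fold. TGFBI fell by 0.73 and POSTN (periostin) by 0.68 on the log2 scale. TNXB (tenascin X), the 1 member that rose, did so by 0.71.

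COL3A1 (chr15:93556914-93595678), the alpha 1 chain of type III collagen, read 501, 107 and 122 CPM at 30 dyne/cm2 and 59.7, 34.3 and 61.7 CPM at 80 dyne/cm2. It fell by 1.90 on the log2 scale (SE 0.35, adjusted p = 0.0203, edgeR) and by 1.84 against set 1, where it was also called. The fall was uneven, with log2 changes of -3.07 in donor 1, -1.66 in donor 2 and least in donor 3. COL8A1, a short-chain collagen of vessel walls, fell by 1.16. Of the 18 collagen and collagen-modifying genes tested, 8 had a lower value, but only COL3A1 and COL8A1 fell by the adjusted p. PLOD3, a lysyl hydroxylase, rose by 0.62. CTHRC1, a secreted protein linked to collagen deposition, fell by 2.05 and by 2.12 against set 1, from levels of 1.73 to 4.94 CPM. The summed level of the 8 fibroblast markers was 127 to 724 CPM at 30 dyne/cm2 and 46.7 to 177 CPM at 80 dyne/cm2. COL3A1 is part of this sum, with 501 of 724, 107 of 127 and 122 of 249 CPM at 30 dyne/cm2. The sum is therefore not independent of COL3A1. All 5 markers tested were lower, with a median of -1.34, while DCN (3 to 15 counts) and FAP (1 to 4 counts) were near 0 in all 6 libraries. COL1A2 alone went from 204, 3.44 and 124 CPM to 30.2, 1.17 and 112 CPM. The part of any such cells in the matrix values was not tested, and in a bulk culture fewer cells of a type and less RNA per cell cannot be told apart.

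Several other matrix genes rose. Of 15 basement membrane genes tested, 2 rose (13.3%, beside 4.36% of all genes) and none fell, and 1 passed without donor 2 or without donor 3. LAMA5, a laminin chain of the endothelial basement membrane, stood at 937, 891 and 1326 CPM and then at 1492, 2189 and 1906 CPM, and rose by 0.83 on the log2 scale. TINAGL1, a secreted matricellular protein of basement membranes, went from 38.8, 32.7 and 28.1 CPM to 163, 274 and 90.8 CPM. The groups were well apart, and TINAGL1 was 4.83-fold higher, with log2 values of 2.27 and, against set 1, 1.89. EMILIN2, an elastin-associated glycoprotein, rose by 1.42 (1.48 against set 1), and THSD4, a fibrillin-binding protein of the ADAMTS-like family, by 2.36 (1.86 against set 1). Of the 15 genes of elastic fibres and cross-linking tested, 4 rose and 3 fell, with 3 calls without donor 2 and 2 without donor 3. The 3 that fell were lysyl oxidases (LOX, LOXL1 and LOXL4, -0.65 to -0.63), with LOX at -0.18 against set 1, and TGM2, a transglutaminase that cross-links matrix proteins, rose by 1.33 but by 0.28 against set 1. The median of this list was -0.74 in donor 1 and 0.05 in donor 2, so the donors did not share a direction.

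Genes of the glycocalyx and its turnover were also split, with 5 of 24 members up (20.8%) and 3 down (12.5%). All genes gave 4.36% and 4.04%, and 3 members of this list were called without donor 3. CEMIP, which takes part in the breakdown of hyaluronan, read 9.55, 22.1 and 42.9 CPM at 30 dyne/cm2 and 47.1, 102 and 143 CPM at 80 dyne/cm2, and rose 4.20-fold (log2 2.07, adjusted p = 0.00152, edgeR), with 1.00 against set 1. HYAL2, a hyaluronidase, rose by 0.73 and the heparan sulfate sulfotransferase HS3ST1 by 1.45 on the log2 scale. SULF1 and SULF2, which remove sulfate from heparan chains at the cell surface, fell by 1.82 and 0.83, and SULF1 was at -0.78 against set 1. CSPG4, a membrane proteoglycan, rose by 2.14 from 0.195 to 1.70 CPM, and its value against set 1 was 0.55.

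Several proteases that act on matrix were higher at 80 dyne/cm2 than in set 2. In the ADAMTS list, 5 of 8 members tested rose and none fell, beside 4.36% of all genes up, and the median log2 change was 0.72. ADAMTS1 (chr13:190277175-190285957), which cleaves versican and aggrecan, stood at 7.38, 34.9 and 32.7 CPM at 30 dyne/cm2 and at 56.8, 465 and 111 CPM at 80 dyne/cm2. Each culture at 80 dyne/cm2 exceeded each culture of set 2, and the rise was 7.02-fold (log2 2.81 ± 0.34 SE, adjusted p = 0.00618, edgeR). ADAMTS4 and ADAMTS5, the main aggrecanases, rose 2.64-fold and 2.49-fold, ADAMTS14 1.98-fold and ADAMTS6 by 0.46 on the log2 scale. Set 1 changed this picture: ADAMTS1 held 166, 153 and 78.1 CPM there, and the log2 differences from it were 0.22 for ADAMTS1, -0.17 for ADAMTS4 and 0.06 for ADAMTS5. ADAMTS14 (0.70) and ADAMTS6 (0.53) were nearer to their values against set 2, and the median of the list against set 1 was 0.20. Without donor 2 or without donor 3, 2 of the 8 passed the test.

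The plasminogen system showed the same dependence. PLAU, the urokinase-type plasminogen activator, read 285, 424 and 135 CPM and then 599, 1160 and 273 CPM, and PLAUR, its receptor, 60.8, 95.7 and 63.7 CPM and then 113, 267 and 136 CPM. Both rose in each donor, PLAU 2.26-fold and PLAUR 2.22-fold, and S100A10, part of a cell-surface plasminogen receptor, rose 1.47-fold. These were 3 of 9 members tested, with none down, and 2 passed without donor 3. In set 1 PLAU stood at 679, 914 and 247 CPM and PLAUR at 131, 163 and 176 CPM, and the log2 differences from it were 0.10 and 0.04. Of 12 matrix metalloproteinases and their inhibitors tested, 3 rose (25.0%) and 2 fell (16.7%), beside 4.36% and 4.04% of all genes. Of the 12, 2 passed without donor 2 or without donor 3. MMP14, a membrane-bound collagenase, rose 1.75-fold and TIMP1, a secreted inhibitor, 1.90-fold, whereas MMP16 fell by 0.97 and RECK, a membrane-anchored inhibitor, by 0.55 on the log2 scale. MMP14 was 0.25 and TIMP1 0.23 above set 1.

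**Figure D3:**
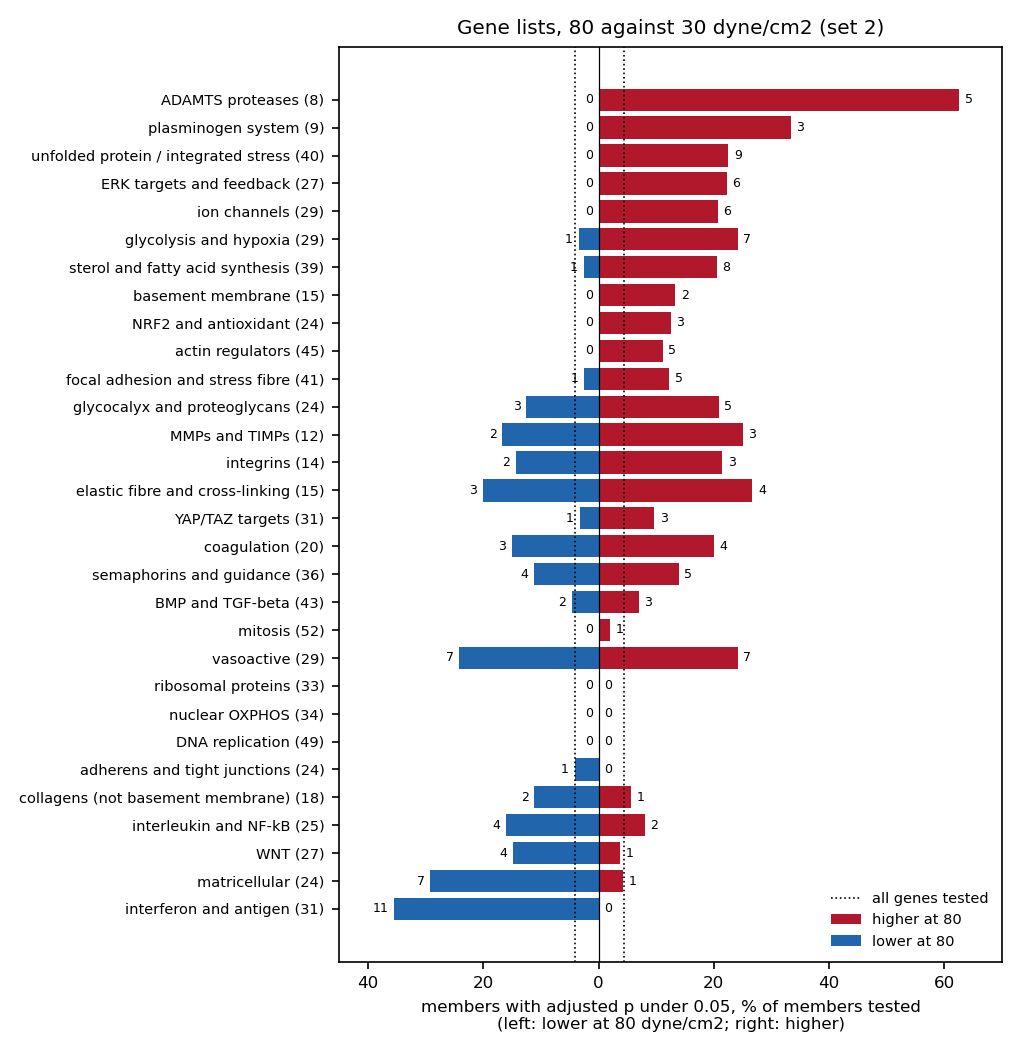
Bars give the percentage of tested members of each gene list that rose (right) or fell (left) at 80 dyne/cm2 with an adjusted p under 0.05 against set 2. The number of members is printed at each bar, the number tested stands beside each name, and dotted lines are the shares over all genes tested (4.36% and 4.04%). The ADAMTS list reaches furthest to the right with 5 of 8 members, and the interferon and antigen list furthest to the left with 11 of 31.

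Integrins, the receptors that hold ECs to matrix, were split by subunit. ITGB3, the beta 3 subunit that pairs with alpha V to bind fibronectin and vitronectin, went from 103, 105 and 84.4 CPM to 271, 234 and 184 CPM. It rose 2.33-fold, with no overlap between the groups (log2 1.22 ± 0.09 SE, adjusted p = 0.00233, edgeR) and was 0.64 above set 1. ITGA3 and ITGA6, both laminin receptors, rose by 0.71 and 0.54, and ITGA6 was 0.13 above set 1. ITGB5 read 616, 615 and 436 CPM and then 304, 376 and 291 CPM, and fell by 0.77 (0.78 against set 1). ITGA1, a collagen receptor subunit, fell by 0.62, but its value against set 1 was 0.11.

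Among 41 focal adhesion and stress fibre genes tested, 5 rose (12.2%) and 1 fell (2.44%), with 3 calls without donor 2 and 2 without donor 3. RHOC, a small GTPase, rose 1.77-fold, and the adhesion proteins PDLIM7, PARVB, ZYX and VASP rose by 0.51 to 0.58 on the log2 scale. Against set 1 PDLIM7 stood at 0.25 and VASP at 0.23. TPM1 (tropomyosin 1) was the gene that fell, from 1794, 1106 and 845 CPM to 807, 381 and 590 CPM, by 1.07 (log2), yet its value against set 1 was -0.21. Of 45 regulators of actin, 5 rose and none fell, with CDC42EP2, a Cdc42 effector, up 2.64-fold and PSTPIP1 up 2.21-fold, followed by FSCN1 (fascin), FMNL3 and EZR (ezrin) at 0.48 to 0.52 on the log2 scale. No regulator passed without donor 2 or against set 1, and 1 passed without donor 3. The log2 values against set 1 were 0.29 for CDC42EP2, 0.43 for PSTPIP1 and 0.03 for FSCN1. The cytoplasmic actins themselves did not pass the test. ACTB stood at 1673, 1801 and 1953 CPM and then at 2480, 2974 and 2178 CPM (log2 0.48 ± 0.15 SE, adjusted p = 0.0919, edgeR). ACTG1 stood at 2640, 2863 and 3136 CPM and then at 3580, 4525 and 3660 CPM (0.44 ± 0.14 SE, adjusted p = 0.108, edgeR). In both genes every culture at 80 dyne/cm2 was above every culture of set 2, while 14.9% of all genes tested also had no overlap, in either direction. Against set 1 ACTB stood at 0.29 on the log2 scale (adjusted p = 0.55, edgeR). In donor 3 its set 1 culture, at 2398 CPM, was above the culture at 80 dyne/cm2. The 4 muscle actins were below the filter on low counts.

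In the ion channel list, the members that passed the test all rose: 6 of 29 tested were up (20.7%) and none was down, with a list median of 0.09. Left-out donors gave 4 to 12 rises and no fall. KCNMA1 (chr14:79345382-80106337), the large-conductance potassium channel opened by calcium, read 3.76, 2.71 and 15.5 CPM at 30 dyne/cm2 and 14.9, 24.7 and 90.9 CPM at 80 dyne/cm2. It rose in each donor, 5.88-fold in the fit (log2 2.56 ± 0.20 SE, adjusted p = 0.00233, edgeR), and was also called against set 1 with 1.79 (adjusted p = 0.048, edgeR). ANO1, a chloride channel opened by calcium, went from 73.7, 76.1 and 145 CPM to 245, 681 and 614 CPM and rose 4.99-fold, with 1.27 against set 1. KCNN4, the intermediate-conductance calcium-activated potassium channel, rose by 1.11 and TRPV4, a calcium channel that responds to flow, by 1.21 on the log2 scale. ITPR3, which releases calcium from the endoplasmic reticulum, rose by 1.14, and the voltage-gated KCNQ5 by 0.64. The values against set 1 were 0.90 for KCNN4, 0.98 for TRPV4, 0.65 for ITPR3 and 0.03 for KCNQ5.

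Lists of protein folding stress and of lipid and sugar metabolism held rises of small size. Of 40 genes of the unfolded protein and integrated stress responses tested, 38 had a higher value, 9 rose by the test (22.5%, beside 4.36% of all genes) and none fell. CHAC1, which degrades glutathione, read 7.19, 18.7 and 10.1 CPM and then 25.9, 39.3 and 18.9 CPM, and rose 2.40-fold. TRIB3, a pseudokinase induced by ATF4, rose 2.25-fold (log2 1.17, and 0.41 against set 1) and DDIT4, an inhibitor of mTOR signalling, 1.74-fold. The chaperone HYOU1 rose by 0.52 and the folding enzyme PDIA4 by 0.51 on the log2 scale. List medians were 0.37, 0.19 and 0.24 in donors 1 to 3 and 0.16 against set 1. Without donor 3, 1 member passed the test, and without donor 2, 5 did.

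The sterol and fatty acid list had 8 of 39 members up and 1 down, with 33 higher in value. CH25H, which makes 25-hydroxycholesterol, went from 6.02, 12.1 and 45.6 CPM to 19.9, 70.7 and 110 CPM, rose 3.55-fold and was 1.46 above set 1 (adjusted p = 0.02, edgeR). Of the fatty acid enzymes, ACLY rose 1.48-fold and FASN by 0.55 on the log2 scale. MYLIP, a ubiquitin ligase induced by sterols, fell by 0.66. The list median was 0.28 against set 1 and 0.19 against set 2, and 2 members rose without donor 2 and 1 without donor 3. In the glycolysis and hypoxia list, 7 of 29 members rose and 1 fell, with 4 calls without donor 2 and 1 without donor 3. LDHA (lactate dehydrogenase A) stood at 403, 388 and 363 CPM and then at 758, 666 and 653 CPM. LDHA rose 1.79-fold, GAPDH 1.61-fold and VEGFA, the main endothelial growth factor, 1.95-fold. Against set 1 these 3 stood at 0.47, 0.44 and 0.46 on the log2 scale. PGD, an enzyme of the pentose phosphate pathway, rose 1.44-fold. Of 34 nuclear genes of oxidative phosphorylation and 33 ribosomal protein genes tested, none was called.

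Interferon-stimulated and antigen presentation genes formed the list with the largest share of falls: 11 of 31 members tested fell (35.5%, beside 4.04% of all genes), none rose, and 28 had a lower value. The median log2 change was -0.38, with -0.29, -0.40 and -0.37 in donors 1 to 3. The count of falls changed with the donors fitted: 2 members passed without donor 2, none without donor 3 and 16 without donor 1, while the median stayed between -0.41 and -0.35. RSAD2 (viperin) stood at 12.9, 45.4 and 7.28 CPM and then at 10.5, 15.7 and 2.39 CPM, and IFI6 at 22.7, 41.5 and 9.57 CPM and then at 8.59, 25.2 and 4.31 CPM. Both fell by over 1 on the log2 scale, by 1.12 and 1.08, and their values against set 1 were both -0.93. The RNA sensor DHX58 fell by 0.90, and IFI44, MX2, IFIT2, IFI44L, GBP1, HERC5 and STAT2 fell by 0.38 to 0.74. The list median against set 1 was -0.06, and there the members GBP1 (0.09), STAT2 (-0.02) and IFI44L (-0.10) were near 0, with IFI44 at -0.34, MX2 at -0.32 and DHX58 at -0.43.

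Cytokines and chemokines moved in both directions. IL33, a nuclear cytokine of the endothelium, read 669, 702 and 751 CPM at 30 dyne/cm2 and 239, 236 and 352 CPM at 80 dyne/cm2. The control cultures were close to each other and all far above the cultures at 80 dyne/cm2, and IL33 fell by 1.39 on the log2 scale (SE 0.12, adjusted p = 0.00291, edgeR). Set 1 was lower than set 2, at 577, 434 and 275 CPM, and in donor 3 it was below the culture at 80 dyne/cm2, and the log2 value against set 1 was -0.61. IL7 fell by 1.08 (-0.24 against set 1). CSF2 (GM-CSF) rose 2.89-fold and CXCL8 (interleukin 8) 1.94-fold, from levels at which donor 2 exceeded the other donors (28 CPM of CSF2 and 268 CPM of CXCL8 at 30 dyne/cm2). Their log2 values were 1.53 and 0.95, and against set 1 they were 0.33 and 0.36. CXCL12 rose by 1.73 (2.14 against set 1) from 0.178 to 1.60 CPM, and CXCL14 fell by 1.93. FGL2, a prothrombinase-like protein, fell 7.58-fold, from 1.25, 4.01 and 28.7 CPM to 0.40, 0.339 and 3.34 CPM, with a log2 value of -1.06 against set 1. Adhesion molecules and chemokines had 3 of 17 members up (17.6%) and 1 down (5.88%) in all, with 2 calls without donor 2 and 1 without donor 3.

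Of 27 targets and feedback inhibitors of ERK signalling tested, 6 rose against set 2 and none fell, led by SPRY1 (1.24), HBEGF (0.95) and DUSP8 (0.93), on the log2 scale. Without donor 2, 1 member passed, and without donor 3, 3 did. The list median was 0.31, 0.44 and -0.03 in donors 1 to 3, so that it was below 0 in donor 3. In the fits the median was 0.30 against set 2 and -0.39 against set 1, and between the 2 control sets it was -0.70 for set 2 minus set 1. Against set 1 SPRY1 stood at 0.20, HBEGF at -0.10 and DUSP8 at 0.81. Of the 8 immediate early genes tested, 2 rose. NR4A1, an orphan nuclear receptor, went from 9.86, 11.3 and 20.2 CPM to 26.8, 58.6 and 63.9 CPM (3.54-fold), while set 1 held 69.8, 16.3 and 30.7 CPM and the log2 difference from it was 0.55. ATF3 rose by 0.84 and was 0.03 above set 1.

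Genes of proliferation were lower in 2 donors and higher in the other one. None of 49 DNA replication genes tested passed the test, yet 47 had a lower value in the fit, with a median of -0.31. The medians per donor were 0.21, -0.64 and -0.52. For 52 mitosis genes they were 0.38, -0.71 and -0.46, and 46 of these had a lower fitted value, while 1 member, CDC25B, rose by 0.51. TOP2A, a topoisomerase of dividing cells named after its values were seen, read 151, 130 and 156 CPM and then 169, 53.2 and 87.6 CPM. In donor 1 it was slightly higher at 80 dyne/cm2 and in donors 2 and 3 it was lower. With donor 1 left out, 39 of the 49 replication genes and 43 of the 52 mitosis genes fell by the adjusted p. That fit keeps only the 2 donors with medians below 0, and 1063 of all 11187 genes tested fell in it. None of the replication and mitosis genes fell with either of the other donors left out. The helicase subunit MCM6 followed the same order with 178, 169 and 166 CPM and then 198, 112 and 142 CPM. Against set 1 the list medians were -0.44 for replication and -0.39 for mitosis.

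**Figure D4:**
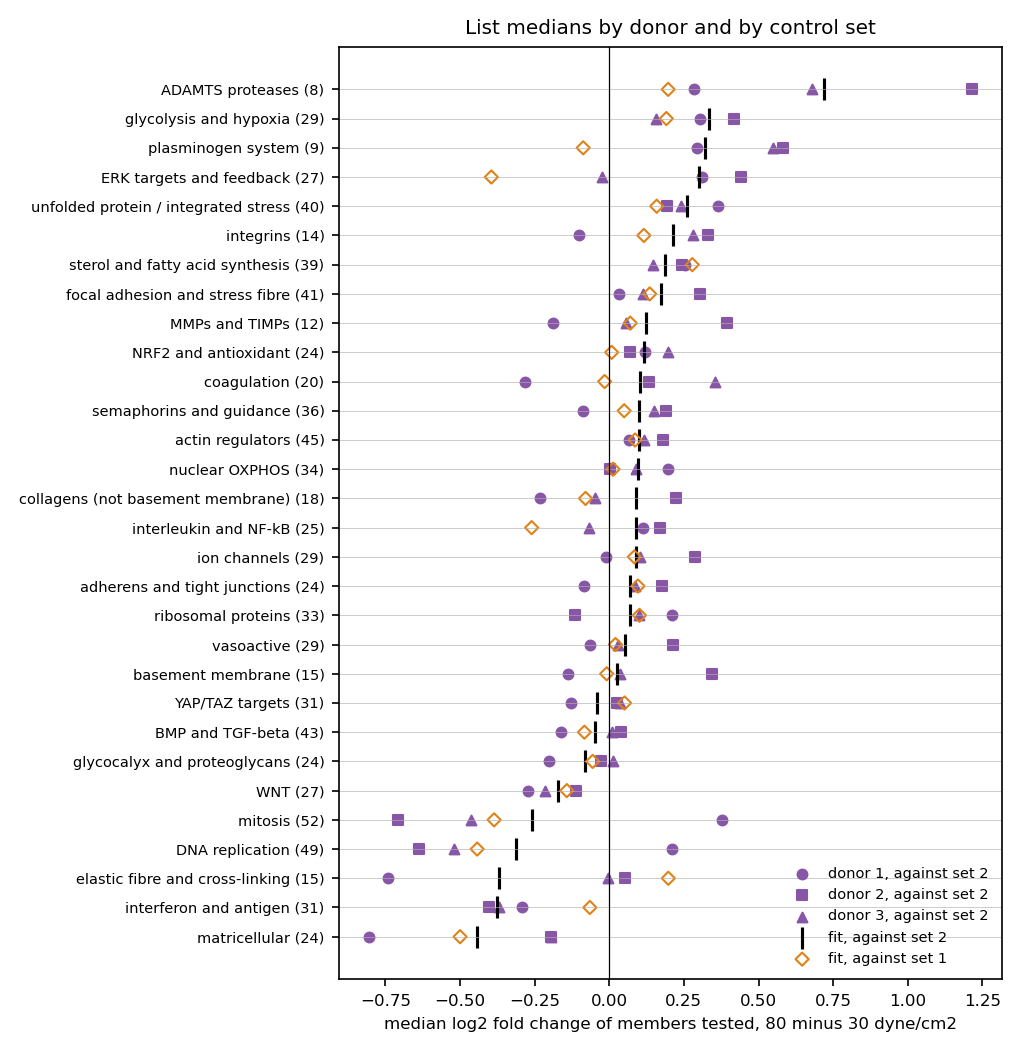
Median log2 change of the tested members of each list at 80 against 30 dyne/cm2, by donor (filled markers), in the fit over donors (black ticks) and in the fit against set 1 (open diamonds). Donor 1 lies to the right of 0 for DNA replication and mitosis, with 0.21 and 0.38, and donors 2 and 3 lie to the left, while ERK targets lie on opposite sides of 0 against the 2 control sets.

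Whether supra-high and low WSS act in opposite directions was asked with the 2 dyne/cm2 cultures, which were set against set 1 and so share no library with the comparison at 80 dyne/cm2, although the donors are the same. Of the 246 genes called at 80 dyne/cm2, 222 were tested in both comparisons, and 203 of these had the opposite sign at 2 dyne/cm2. Over all 11042 genes tested in both, 65.3% had opposite signs. Of 105 such genes that rose at 80 dyne/cm2, 81 fell at least 2-fold at 2 dyne/cm2 with an adjusted p under 0.05 (77.1%, beside 4.60% of all genes), and 2 rose. Of 117 that fell at 80 dyne/cm2, 66 rose at 2 dyne/cm2 (56.4%, beside 4.37% of all genes) and 3 fell. A test of the difference between the 2 responses passed for 225 of the 246 genes and for 36.9% of all genes tested. This test includes the contrast that chose the 246, so its share is a description.

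For several of the genes described above, the level at 2 dyne/cm2 lay beyond that at 30 dyne/cm2 on the side away from 80 dyne/cm2. KCNMA1 was at 0, 0 and 0.099 CPM at 2 dyne/cm2, WNT9B at 0.668, 0.581 and 0.627 CPM, ANO1 at 2.42, 3.58 and 7.36 CPM and ADAMTS1 at 1.98, 3.10 and 2.08 CPM. In each of these the 2 dyne/cm2 cultures lay below every culture at 30 or 80 dyne/cm2. IGFBP3 reached 3570, 3308 and 4096 CPM at 2 dyne/cm2, above every culture at 30 dyne/cm2, and GDF6 448, 253 and 540 CPM. The interferon list, whose median fell at 80 dyne/cm2, had a median of 0.88 at 2 dyne/cm2, with 10 of its 31 members higher (beside 12.8% of all genes) and none lower by the adjusted p. The sterol and fatty acid list had 31 of 39 members lower at 2 dyne/cm2 by the same rule (beside 12.6% of all genes). IL33 departed from the opposite pattern: it read 113, 152 and 128 CPM at 2 dyne/cm2 and was thus lower than at 30 dyne/cm2 at both ends of the range, with log2 changes of -1.64 at 2 and -1.39 at 80 dyne/cm2 (difference between responses 0.34 ± 0.36 SE, adjusted p = 0.488, edgeR). MYCN, a transcription factor, and CXCL12 were higher at both ends, each end against its own control set, with log2 values of 2.38 and 1.56 at 2 dyne/cm2. For MYCN the control sets themselves lay apart, with a log2 value of 1.33 for set 2 minus set 1. In donor 3 MYCN read 10.7 CPM at 2 dyne/cm2, below the 12.6 CPM of set 2.

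**Figure D5:**
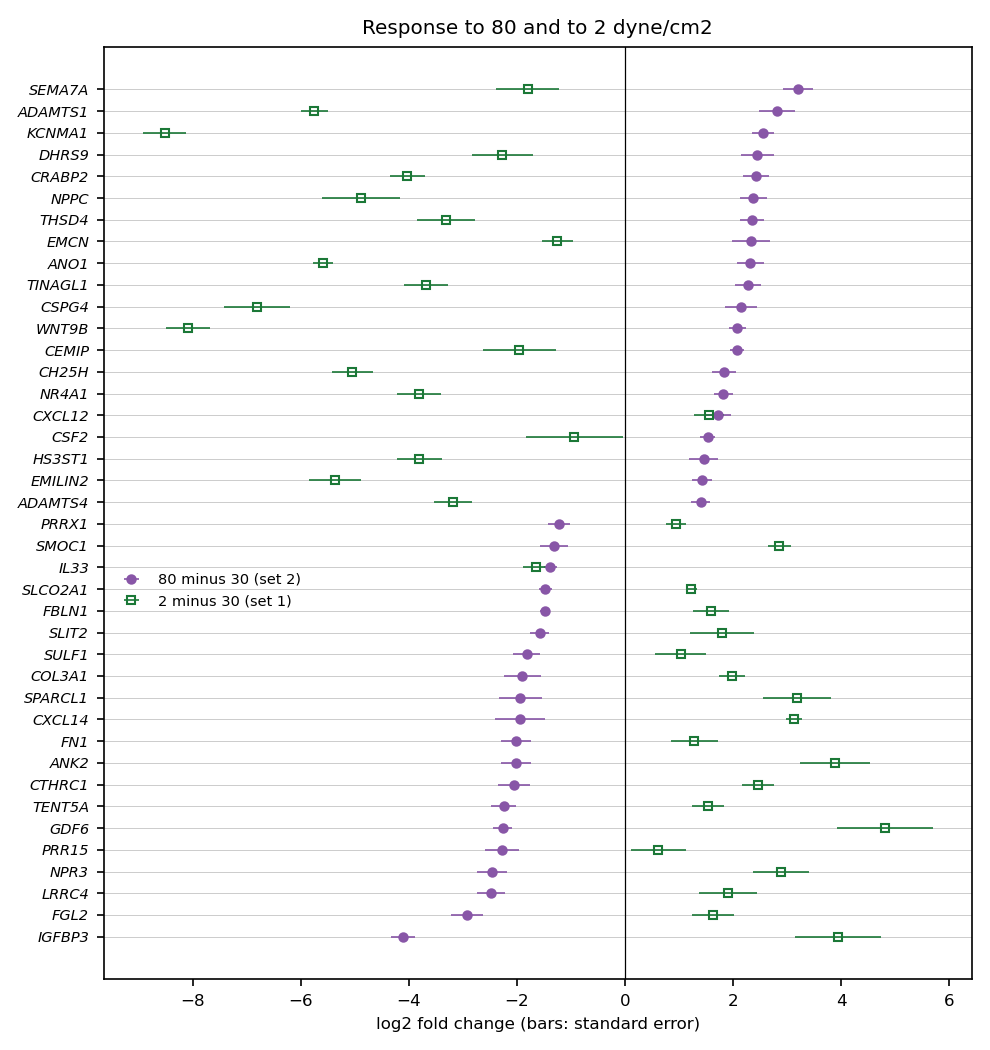
Log2 fold changes with standard errors for 20 of the largest rises and the 20 largest falls among the named genes called at 80 dyne/cm2 and tested in both comparisons (circles, against set 2), beside their change at 2 dyne/cm2 (open squares, against set 1). Nearly all squares lie on the other side of 0, and the exceptions are CXCL12 among the rises and IL33 among the falls.

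Some of the largest changes were in genes of none of these lists. CRABP2, which carries retinoic acid in the cell, went from 3.43, 1.72 and 46 CPM to 16.7, 18.9 and 177 CPM and rose 5.38-fold, with a log2 value of 1.85 against set 1 (adjusted p = 0.02, edgeR). DHRS9, a retinol dehydrogenase, rose 5.47-fold, from 0.334, 1.66 and 4.40 CPM to 2.46, 15.8 and 13.8 CPM, but set 1 held 2.82, 2.98 and 13.1 CPM and the log2 difference from it was 0.74. SSUH2 read 0.668, 0.482 and 0.585 CPM and then 3.20, 2.31 and 2.68 CPM, was higher in each donor, and had log2 values of 2.23 and, against set 1, 2.40. FAM167B rose 6.31-fold from levels under 1 CPM. In set 2 neither SSUH2 nor FAM167B reached 1 CPM, so both passed the filter only through the group in which they were high. On the other side, the ankyrin ANK2 fell 4.06-fold, from 4.99, 2.26 and 2.82 CPM to 0.747, 0.769 and 0.881 CPM, and stood at 44.1, 6.23 and 38.8 CPM at 2 dyne/cm2. No culture at 80 dyne/cm2 reached 1 CPM of ANK2, so this gene passed the filter only through set 2. PRR15 and TENT5A fell 4.83-fold and 4.74-fold from levels of 0.39 to 6.87 CPM, and PRR15 was at -1.05 against set 1.

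Other lists are set here beside the 4.36% of all genes that rose and the 4.04% that fell. Of those described here, the coagulation list held the most calls. Adherens and tight junction genes had 1 of 24 members down (4.17%) and none up, with CDH13, a cadherin without a cytoplasmic tail, at -0.55. The list of YAP and TAZ pathway members and targets had 3 of 31 up (9.68%) and 1 down (3.23%), with NT5E, which makes adenosine from AMP, at 1.08 (0.41 against set 1). The list had 1 call without donor 2 and none without donor 3. Notch and arterial genes had 1 of 24 up (4.17%) and 2 down (8.33%), both falls in Notch targets (HEYL -1.19 and HEY1 -0.87). The HEYL value against set 1 was 0.23, and that of HEY1 was -1.02. The Notch list had 1 call without donor 2 and none without donor 3. In the coagulation list 4 of 20 rose (20%) and 3 fell (15%). Among the rises, ENTPD1, an ectonucleotidase that removes ATP and ADP, stood at 0.90 (1.15 against set 1). The 7 calls compare with 3 without donor 2 and none without donor 3 or against set 1. Of 20 genes near aneurysm risk loci or linked to them that were tested, COL3A1 fell and PLOD3 rose, a share of 5% each way.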

How the data were processed

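RNA of 12 cultures of porcine arterial ECs was sequenced single-end, and 6 of the libraries are compared here. The authors used STAR 2.4 for alignment to Sscrofa11.1, dropped any read with more than one position, counted the rest per gene with featureCounts 1.4.6, as named in the submitters' processing notes, and deposited raw counts that were not normalised. From these counts, analysed in R 4.3.3 with edgeR 4.0.16 and limma 3.58.1, genes reaching 1 CPM in 3 or more of the libraries compared were kept (11187 of 21153), scaled by TMM and tested with the quasi-likelihood test (glmQLFit, glmQLFTest) with the replicate number as a block. The reported filter of the study needs gene lengths, which were not used here. CPM in the text were TMM-scaled over all 12 libraries, per-donor changes are differences of log2 CPM with a prior count of 2, and SE is the log2 fold change divided by the root of F. Called genes changed at least 2-fold with an adjusted p under 0.05 (Benjamini-Hochberg over all genes tested).

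The replicate numbers pair the libraries because the source names give the same letter to the same donor. Deviations from the group means correlated at 0.807, 0.826 and 0.860 for libraries of the same number and at -0.485 to -0.348 for other pairs. The p-values measure the spread of the paired changes over 3 donors, with 1 culture per donor and level and the dispersion shared over genes. Symbols were matched for 14572 genes (68.9%), and 66 further names came from the study's gene table and were used for single genes only. THBD and VWF were not matched. Positions are those of RefSeq genes in Sscrofa11.1. Strand was not stated for the counting, so overlapping genes may share reads. No interval for counting error is given, and its size beside the donor spread was not tested. Some genes described have low counts, such as TENT5A with 3, 48 and 15 counts at 80 dyne/cm2. The members, the 51 gene lists and the tests were chosen with earlier results of these data known. Named were the 12 largest called changes in each direction with a symbol, 50 counts on average and one direction in all donors, up to 4 of the largest per list past the adjusted p (or the 2 most abundant where none passed), and the flow, identity and actin genes. This gave 159 genes, of which those the comparisons turn on are described, and other genes named are members of the lists that passed the test. Alternatives were DESeq2 1.42.0, other normalisation, filters, control sets and dispersion, no block, and each donor left out. Tests were run on simulated data first. A planned search for motifs in promoters was not run, since no promoter sequence was used here. A few genes are not reported here.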

Additional observations from a re-analysis of the deposited data

How the results depend on the processing

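The count of 246 called genes was 242 with RLE normalization, 236 with DESeq2, 340 without a filter and 231 with at least 10 counts in every library. It was 0 without the replicate block (929 genes at an unadjusted p under 0.05, smallest adjusted p 0.064), 24 with set 1 as control, 84 with both sets as control, 125 with the dispersion from 12 libraries, 940 by the adjusted p alone and 83 with glmTreat against a 1.5-fold change. Leaving out 1 donor gave 143 (without donor 2) to 330 (without donor 1), and 148 without donor 3. Rises made up 52.0% of calls, but 41.7% with set 1 and 62.4% with the 12-library dispersion. Differences between the responses to 80 and 2 dyne/cm2 numbered 4133, 1721 without the replicate block and 1907 to 3221 with a donor left out (2362 without donor 1). The 2 control sets differed by 1 gene, by 0 without the block and by 0 to 112 with a donor left out. These leave-out fits and the unpaired fit of the control sets were chosen after seeing the data. Signs were followed for the genes named by the selection rule. With set 1 as control the log2 value changed sign for ADAMTS4 (-0.17), HBEGF (-0.10), CD14 (-0.0929), ITGA1 (0.11) and PHLDA2 (-0.0798). It also did for AJUBA (0.40), CDKN1B (0.0898), HEYL (0.23) and RPS20 (0.0244, and 0.0050 with both sets). Outside the rule, described genes such as EDN1 (0.04), PTGS2 (-0.84), GBP1 (0.09) and IL1A (-0.51) changed sign too. Among rule-named genes near 0, leaving out a donor changed the sign of CDC45 (-0.12 to 0.015), CD14 (-0.35 to 0.31), CD68 (-0.18 to 0.48) and RPS20 (-0.084 to 0.031). Of the 143 named genes past the adjusted p, 140 stayed past it with DESeq2, 141 with RLE, 65 with the 12-library dispersion, 46 with both control sets, 9 with set 1 and none without the block, and 59 to 141 did with a donor left out. The cause was not tested. With 2 donors per group, the fits rest on 1 residual degree of freedom plus the spread shared over genes.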
